A study of Mus musculus with 2 samples.

Results

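Interferon-response neutrophils were studied as a set of tumor neutrophils that carried transcripts of genes switched on by interferon. A cell was taken as a member when it had at least 500 UMIs (unique molecular identifiers, each standing for 1 captured RNA molecule), more than 200 and fewer than 6000 genes and under 5% mitochondrial UMIs, when S100a8 and S100a9 together made up at least 2% of its UMIs, when it had 0 UMIs of Csf1r, and when at least 2 of the 4 genes Trim30c, Ifit1bl2, Gbp5 and Ddx60 had 1 UMI or more. These rules found 460 cells among 19826 filtered cells, 420 of them from control IgG tumors and 40 from anti-CD3L1 tumors. The members were thus chosen by measured UMIs of 7 genes, and those values are given only as a description. The other 3714 neutrophils that passed the same S100 and Csf1r gates but held fewer than 2 of the 4 genes, 3365 in control IgG and 349 in anti-CD3L1, served as the comparison and are called the other neutrophils.

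The cells came from subcutaneous 143B tumors in nude mice. 143B is an established human osteosarcoma cell line, and nude mice lack T cells but keep their myeloid and natural killer cells. Per the methods of the study, the mice were female and 4 weeks old, and received 10 mg/kg of a human IgG1 isotype control or of anti-CD3L1, an antibody against the human checkpoint protein CD3L1 (ITPRIPL1), every 3 days for 4 doses. Mouse immune cells were taken from the tumors with CD45 magnetic beads and sequenced on the 10x Genomics Chromium system. Each group was 1 library made from a set of 3 tumors, and cells cannot be assigned to single tumors in the files. There was thus no replicate check of any difference between control IgG and anti-CD3L1, and treatment and library cannot be told apart. No p-value is given, and cells were not used as replicates. The 95% intervals in the text cover counting error only. The libraries held 74850604 UMIs (control IgG) and 108246719 UMIs (anti-CD3L1), of which the interferon-response neutrophils contributed 2613038 and 125497. The smaller sum set the precision of most comparisons.

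Neutrophils are short-lived granulocytes that carry S100A8 and S100A9 as their most abundant cytosolic proteins. Type I interferons act through the receptor IFNAR1/IFNAR2 and the kinases JAK1 and TYK2, which activate a transcription factor complex with STAT2 and IRF9 that binds the interferon-stimulated response element (ISRE). Interferon gamma acts through IFNGR1/IFNGR2 and leads to binding at the gamma-activated site (GAS). The products include antiviral proteins such as the IFIT, OAS, RSAD2 and SLFN families, guanylate-binding proteins, chemokines and the antigen-presentation machinery. In neutrophils, interferon is known to alter survival and the release of inflammatory mediators.

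The 6 genes that mark these cells lie on different chromosomes, except for an adjacent pair. In GENCODE M21 (GRCm38), Ifit1bl2 (ENSMUSG00000067297, minus strand) occupied chr19:34617049-34640743 and Ifit1 (ENSMUSG00000034459, plus strand) chr19:34640871-34650009, so that both genes start from the same short stretch. Trim30c (ENSMUSG00000078616, a TRIM-family gene of the Trim30 cluster) lies at chr7:104382065-104400837. Gbp5 (ENSMUSG00000105504, a guanylate-binding protein that takes part in inflammasome activation) lies at chr3:142493978-142522344. Ddx60 (ENSMUSG00000037921, a helicase that assists RNA sensing) lies at chr8:61928087-62038244, and Slfn4 (ENSMUSG00000000204, a myeloid Schlafen gene) at chr11:83175186-83190216. All 6 are annotated as protein-coding. The deposited files give no coordinates, and the builds of this annotation and of the submitters' processing notes (GRCm39) differ, so that these positions serve only to place the genes.

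Stretches before the start of 8 interferon genes, 3 of them rule genes, are shown because they hold the sequence an interferon-activated complex reads. They are the RefSeq promoter windows of build GRCm38.p6, cut to bases before the start that lie in no GENCODE M21 exon, written 5′ to 3′ on the gene's own strand. Capitals mark matches to an ISRE core (GAAA, any 2 bases, GAAA) or a GAS core, TTCNNNGAA, on either strand. Matches of both motifs may overlap and were counted separately. The stretches are the bases between Ifit1bl2 and Ifit1 (chr19:34640744-34640870, plus strand as Ifit1), then Ddx60 (chr8:61928029-61928086, plus), Gbp5 (chr3:142496734-142496899, plus, inside an intron of the gene as GENCODE draws it), Ifit3 (chr19:34583329-34583528, plus), Ifit3b (chr19:34607757-34607956, plus), Rsad2 (chr12:26456453-26456652, minus) and Isg15 (chr4:156200819-156201018, minus).
Ifit1 and Ifit1bl2: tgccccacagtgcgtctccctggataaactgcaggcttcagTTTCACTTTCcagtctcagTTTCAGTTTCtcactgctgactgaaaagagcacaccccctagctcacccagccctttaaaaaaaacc
Ddx60: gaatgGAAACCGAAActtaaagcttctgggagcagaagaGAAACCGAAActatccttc
Gbp5: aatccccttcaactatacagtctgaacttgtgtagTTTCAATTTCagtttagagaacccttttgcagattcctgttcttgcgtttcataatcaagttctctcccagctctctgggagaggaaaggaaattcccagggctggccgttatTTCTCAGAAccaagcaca
Ifit3: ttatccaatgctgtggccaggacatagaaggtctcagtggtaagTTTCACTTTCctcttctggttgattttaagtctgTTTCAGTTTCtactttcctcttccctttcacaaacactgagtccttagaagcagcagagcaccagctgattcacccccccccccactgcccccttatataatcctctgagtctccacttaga
Ifit3b: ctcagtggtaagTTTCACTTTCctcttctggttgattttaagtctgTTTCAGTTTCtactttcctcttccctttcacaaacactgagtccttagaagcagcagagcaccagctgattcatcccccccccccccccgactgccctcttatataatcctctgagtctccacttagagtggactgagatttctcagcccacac
Rsad2: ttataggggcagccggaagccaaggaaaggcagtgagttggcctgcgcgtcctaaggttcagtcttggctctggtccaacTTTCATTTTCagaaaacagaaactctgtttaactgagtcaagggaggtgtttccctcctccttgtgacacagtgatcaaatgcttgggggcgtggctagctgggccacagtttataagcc
Isg15: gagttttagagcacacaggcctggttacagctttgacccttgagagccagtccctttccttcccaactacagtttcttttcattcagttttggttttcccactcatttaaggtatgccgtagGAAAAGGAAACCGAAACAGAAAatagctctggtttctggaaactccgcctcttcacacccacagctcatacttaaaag

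The 2 ISRE matches between Ifit1bl2 and Ifit1 fell at chr19:34640785-34640794 and chr19:34640804-34640813 and lie in the windows of both genes. Ifit3 and Ifit3b, near-identical neighbours, carried the same pair of matches. Isg15 held 3 overlapping matches. Over the whole windows, from 250 bases before to 50 after the start, an ISRE match was found in 3 of the 4 rule genes and in 23 of the 46 type I interferon list genes that had a window, against 3.99% of all 27025 genes with one. The interferon gamma list had an ISRE match in 10 of 14 genes and a GAS match in 7 of 14, against 9.55% of all genes for GAS. Among 20 neutrophil identity genes with a window, 1 had an ISRE match and 3 a GAS match. Trim30c, Slfn4, Ifit2 and Cmpk2 had no ISRE match in their windows, which says only that these letters are not there. A match is a description of the sequence and not evidence of binding.

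The members were checked against neutrophil genes that the rule did not use. Csf3r, the receptor for the neutrophil growth factor G-CSF, was detected in 93.6% of the control IgG members and in 38 of the 40 anti-CD3L1 members. It was detected in 10.7% and 5.41% of cells with 3 or more UMIs of natural killer markers, although those cells were deeper (median 10999 and 9228.5 UMIs against 4944 and 2726.5 in the members). Cxcr2, the receptor that guides neutrophils to CXCL1 and CXCL2, was detected in 56.9% and 60.0% of the members and in 4.76% and 0.664% of the natural killer-marker cells. In cells with Csf1r and little S100, Csf3r was more common, at 62.1% and 41.4%, but Cxcr2 was detected in 3.31% and 1.17%, at median depths of 12648 and 9115 UMIs. The members thus carried Cxcr2 more often than either of these deeper classes, and the name neutrophil was kept.

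Depth and free RNA differed between the libraries and are given here for all later comparisons. The members held 893 to 29361 UMIs in control IgG and 655 to 8219 in anti-CD3L1, and S100a8 plus S100a9 made up a median of 14.0% and 8.95% of their UMIs. The other neutrophils were shallower, with medians of 4244 and 2082 UMIs. In droplets with 10 to 100 UMIs, which hold mostly free RNA, S100a8 plus S100a9 made up 6.69% of UMIs in control IgG and 0.138% in anti-CD3L1. Barcodes shared by both libraries numbered 26 among the filtered cells, including 1 member of each library. With free RNA subtracted, 301 genes were at least 2-fold higher and 121 at least 2-fold lower in anti-CD3L1 than in control IgG members, against 332 and 119 without. The part of free RNA in the comparisons within a library was not tested.

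The 3 lowest members had S100 shares of 2.09%, 2.18% and 2.32% in control IgG and 2.44%, 2.45% and 2.98% in anti-CD3L1. The highest cells just outside the gate had 1.98% and 1.68%. The Csf1r gate of 0 UMIs kept out 296 control IgG cells and 23 anti-CD3L1 cells that met every other criterion, of which 145 and 12 had a single Csf1r UMI. Csf1r encodes the macrophage growth factor receptor, yet Csf3r was detected in 97.9% and 96.0% of all S100-high cells with Csf1r. The gate therefore removed cells with neutrophil receptors as well.

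Members made up 4.91% of the filtered cells in control IgG (95% exact binomial interval 4.46 to 5.39) and 0.355% in anti-CD3L1 (0.254 to 0.483), a difference of -4.55 percentage points (Newcombe interval -5.04 to -4.10). Among gated neutrophils, they made up 11.1% (10.1 to 12.1) and 10.3% (7.45 to 13.7), and the difference of -0.81 points had an interval from -3.65 to 2.74 that included 0. With each cell thinned to 1000 UMIs before the rule was applied, which left out 187 and 310 shallower cells, the shares of gated neutrophils were 2.91% of 5183 and 3.64% of 440 cells, a difference of 0.72 points (-0.75 to 2.95). Thinning also let cells into the gate, since some no longer held a Csf1r UMI. With the gate kept from the full counts, a repeat chosen after seeing the data, the order turned, at 3.39% of 3688 and 3.29% of 365 cells, a difference of -0.10 points (-1.64 to 2.33). Gated neutrophils numbered 3785 of 8557 filtered cells in control IgG and 389 of 11269 in anti-CD3L1. The lower share of members among all cells went along with this, and the share within gated neutrophils did not differ beyond counting error. How bead capture and dissociation affected these shares was not tested.

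The 4 rule genes were not detected equally often, and their levels are given as a description since they chose the cells. Ddx60 was present in 85.7% of the control IgG members and 85.0% of the anti-CD3L1 members. Gbp5 was present in 65.2% and 45.0%, and Trim30c in 48.1% and 30.0%. Ifit1bl2 showed the opposite order, with 38.1% in control IgG and 70.0% in anti-CD3L1. The commonest pair was Gbp5 with Ddx60 in control IgG (222 of 420 members) and Ifit1bl2 with Ddx60 in anti-CD3L1 (25 of 40 members). Each of these pairs also occurred in the other library, in 14 of the 40 anti-CD3L1 members and 132 of the 420 control IgG members. Among gated neutrophils, 2448, 917, 283, 118 and 19 cells of control IgG and 244, 105, 29, 10 and 1 cells of anti-CD3L1 held 0, 1, 2, 3 and 4 of the genes. Most members thus sat at the threshold of 2 genes.

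Levels were compared as CPM, the UMIs of a gene summed over the cells of a class per 1000000 UMIs of that class, and a gene was compared when its mean CPM predicted at least 10 UMIs in the smaller sum. Since a gene can pass through the class in which it is high, list counts are read beside the share of all genes compared. In control IgG, 254 of 6605 genes were at least 2-fold higher in members than in the other neutrophils (3.85%) and 124 at least 2-fold lower (1.88%). With at least 3 rule genes 246 were higher and 301 lower there, and with no Csf1r gate, chosen after seeing the data, 657 and 44. In anti-CD3L1 the numbers under the rule as given were 107 (6.25%) and 28 (1.64%) of 1711 genes, and 53 genes were higher without cells holding 3 or more marker UMIs of other cell types. The medians over all genes compared were -0.08 and 0.02 on the log2 scale, so that neither comparison was shifted as a whole.

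Ifit1 and Slfn4, the markers that the rule did not use, were higher in the members of both libraries. Both were named as markers with earlier results of these data known, so their values are a description and not independent support. Ifit1 also shares its start region with the rule gene Ifit1bl2. Ifit1, which binds viral RNA lacking 2′-O-methylation, stood at 293 CPM in the control IgG members and 21.6 CPM in the other neutrophils, and at 900 against 77.1 CPM in anti-CD3L1. The log2 ratios were 3.76 (3.58 to 3.95) and 3.55 (3.08 to 4.02). Ifit1 was detected in 43.1% of the control IgG members and 20 of the 40 anti-CD3L1 members, and in 5.26% and 11.5% of the other neutrophils. Slfn4 stood at 1674 against 643 CPM and at 1155 against 585 CPM, with log2 ratios of 1.38 (1.33 to 1.43) and 0.98 (0.70 to 1.25). It was also detected in 73.6% and 55.9% of the other neutrophils, so that it separated the classes by level more than by presence.

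The list of 57 type I interferon-stimulated effectors, which holds none of the rule genes, was higher in the members of both libraries for most of its genes. Of its 55 genes found in the files, 46 could be compared in control IgG, and 37 of these were at least 2-fold higher and 0 at least 2-fold lower, with a median log2 ratio of 1.85. In anti-CD3L1, 32 could be compared, with 24 at least 2-fold higher, 0 at least 2-fold lower and a median of 1.60. Summed over the list, the level was 15591 CPM in the control IgG members and 5503 CPM in the other neutrophils, against 28957 and 10603 CPM in anti-CD3L1. The log2 ratios of the sums were 1.5 and 1.45, and the other neutrophils carried the list too, at a lower level.

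Within that list, IFIT genes had some of the highest ratios. Ifit3, an IFIT1 partner, was at 53.6 CPM in control IgG members against 3.74 CPM in the other neutrophils, and at 526 against 25.3 CPM in anti-CD3L1, with log2 ratios of 3.84 (3.39 to 4.30) and 4.38 (3.64 to 5.18). Ifit2, an RNA-binding antiviral protein gene, had log2 ratios of 4.42 and 4.62, from only 57 and 8 members with a UMI. Ifit3b followed Ifit3 (3.80 and 3.15), but reads of this near-identical pair, and of Ifit1 and Ifit1bl2, may have been split or dropped in counting, so their separate values are uncertain. Rsad2, which encodes viperin, was at 1735 against 165 CPM in control IgG (3.39, 3.32 to 3.46). In anti-CD3L1 it was at 5315 against 1573 CPM (1.76, 1.62 to 1.89), since the other neutrophils there already held a high level. Cmpk2, the head-to-head neighbour of Rsad2, had log2 ratios of 3.98 and 2.93. Usp18, which removes ISG15 and damps the receptor, had ratios of 3.41 and 2.01, Herc6, the mouse ISG15 ligase, 3.54 and 2.23, and Isg15 itself 1.97 (2214 against 565 CPM) and 1.71 (4446 against 1355 CPM). Ifi47, an immunity-related GTPase gene, had ratios of 4.11 and 2.66. The 9 genes that did not reach 2-fold in control IgG included Ifitm3 (0.55), which encodes a membrane protein that blocks virus entry, Ifi27l2a (0.79) and Trim25 (0.81).

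**Figure D1:**
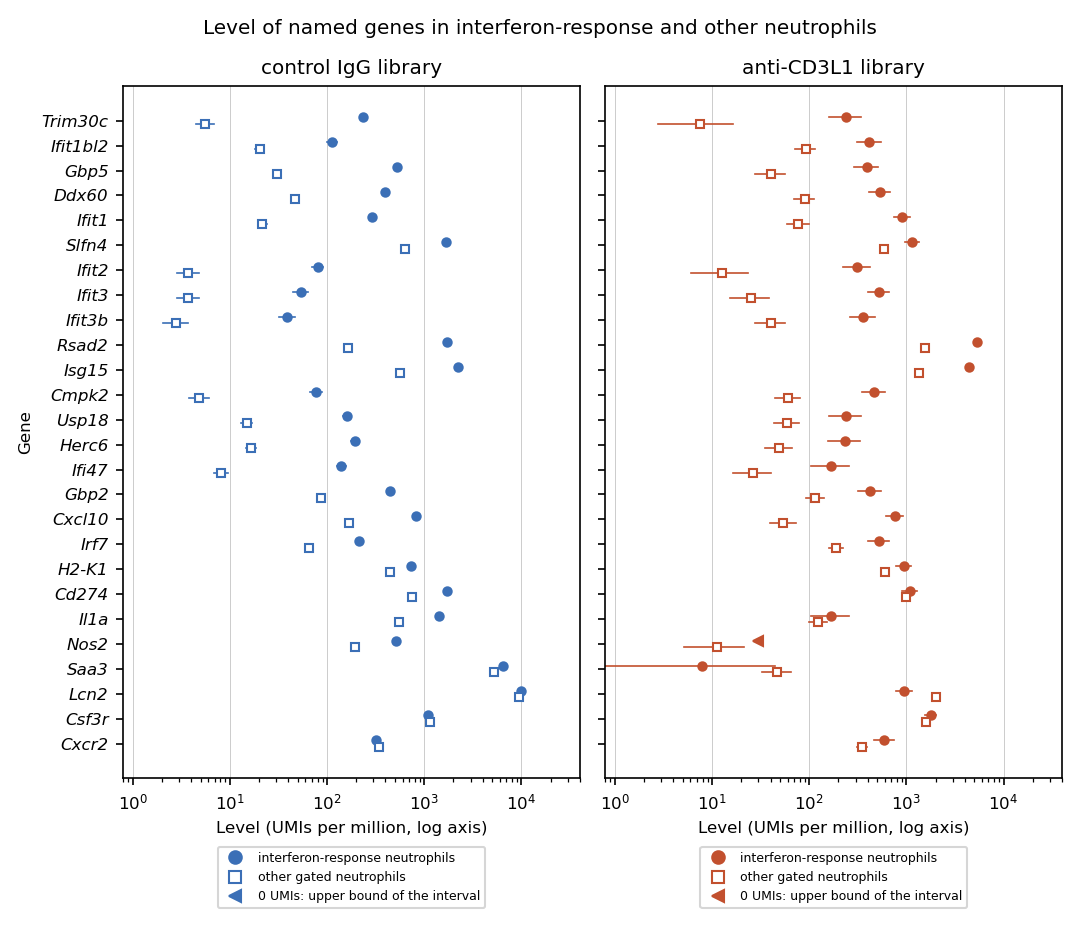
Level of 26 genes in CPM (log axis) in the interferon-response neutrophils (filled circles) and the other neutrophils (open squares) of the control IgG library (left) and the anti-CD3L1 library (right). Bars are 95% Poisson intervals for counting error, there was 1 library per group, and a triangle marks the upper bound of a class with 0 UMIs. Interferon genes such as Ifit1 (293 against 21.6 CPM in control IgG, 900 against 77.1 in anti-CD3L1) lie to the right in the members of both libraries, while Csf3r lies at nearly the same level in both classes.

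Across all named genes that could be compared in both libraries, 1663 in number, 64 were at least 2-fold higher in members in control IgG and 104 in anti-CD3L1, and 50 were so in both. No gene was at least 2-fold lower in both, and Ccl5 and H2-Aa passed 2-fold in opposite directions. Besides the 4 rule genes, the 50 comprised 23 type I effectors, 4 genes of class I antigen presentation, 3 genes of the interferon gamma list, 3 of receptors and signalling, 3 nucleic acid sensors and 10 genes outside every list. Those 10 were Gbp2b, Ly6e, Trafd1, Tor1aip2, Ctss, Sppl2a, Pnp, Clic4, AW112010 and 9930111J21Rik2, named because they make up the whole remainder. Gbp2b is a guanylate-binding protein gene whose reads may be shared with Gbp2. Ly6e encodes a membrane protein with antiviral activity, and Trafd1 encodes a feedback regulator of innate signalling.

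**Figure D2:**
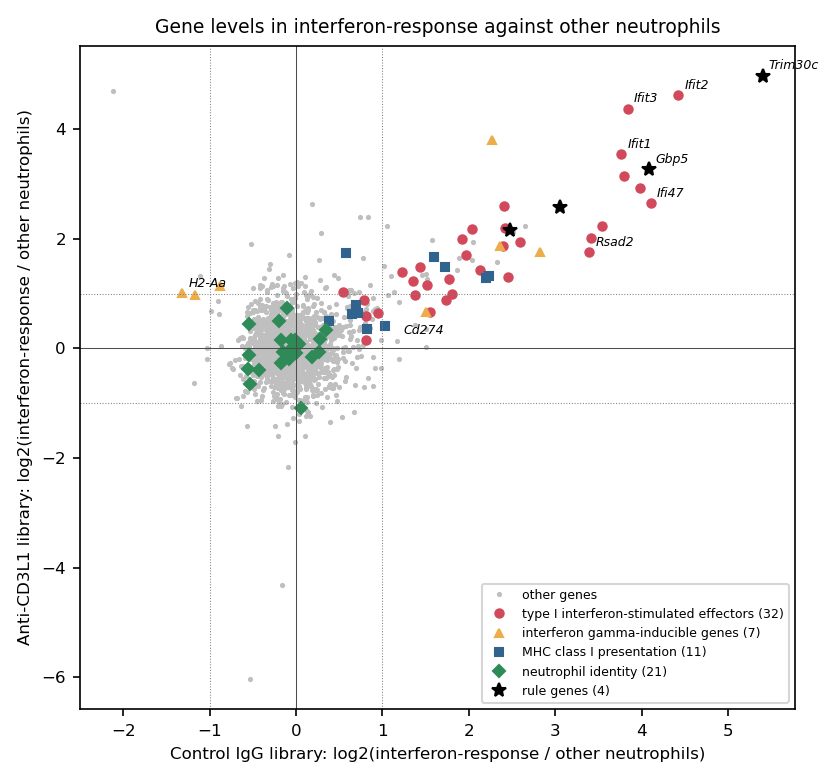
Each point is 1 gene compared in both libraries, with the log2 ratio of its level in interferon-response against other neutrophils in control IgG (horizontal) and anti-CD3L1 (vertical); dotted lines mark 2-fold, and genes with 0 UMIs in a class are not drawn. Type I interferon genes and the rule genes lie in the upper right, the neutrophil identity genes, drawn without S100a8 and S100a9, lie around 0, and H2-Aa lies in the upper left.

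Genes of the interferon gamma list were higher in the members as well, with the exception of class II genes in control IgG. Of 23 list genes in the files, 17 could be compared in control IgG, with 14 at least 2-fold higher and 2 at least 2-fold lower (H2-Aa and H2-Ab1), and a median log2 ratio of 2.36. Only 7 could be compared in anti-CD3L1, with 5 at least 2-fold higher and 0 lower and a median of 1.14. H2-Aa and Cd74, which rested on few cells, were among the 5, and without cells holding 3 or more marker UMIs of other types 2 of 4 genes were at least 2-fold higher. Cxcl10, a chemokine for CXCR3-bearing lymphocytes, was at 817 against 170 CPM in control IgG and 757 against 54.3 CPM in anti-CD3L1, with log2 ratios of 2.26 (2.18 to 2.35) and 3.80 (3.27 to 4.36). It was detected in 46.4% and 27.5% of the members. Gbp2, a guanylate-binding protein gene, was at 443 against 86.4 CPM and 422 against 115 CPM. Irf1, a transcription factor gene induced by interferon gamma, was at 514 against 180 CPM (1.51, 1.42 to 1.60) and at 454 against 287 CPM (0.66, 0.22 to 1.09). Its ratio in anti-CD3L1 did not reach 2-fold. Cxcl9 was detected in 2.38% and 2.50% of the members, and 31 and 2 UMIs carried its values.

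The class II antigen-presentation genes rested on few cells. H2-Aa was at 15.7 CPM in the control IgG members against 39.0 CPM in the other neutrophils, and at 223 against 111 CPM in anti-CD3L1. Of the 137 UMIs of H2-Aa, H2-Ab1, H2-Eb1 and Cd74 in the anti-CD3L1 members, 83 were in 1 cell. Among the control IgG other neutrophils, 1 cell held 728 of 3497 such UMIs. With cells that held 3 or more marker UMIs of other cell types left out, H2-Aa was at 17.3 against 22.8 CPM in control IgG and at 45.3 against 118 CPM in anti-CD3L1, the latter from 3 UMIs in 26 members. The higher H2-Aa level of the anti-CD3L1 members was thus not seen without those cells. The 25 UMIs of H2-Ab1 lay in 14 of the 40 anti-CD3L1 members, and its log2 ratio was 0.98 (0.27 to 1.64). Without the marker-holding cells it was 1.02 (-0.03 to 1.95), with 181 against 89.6 CPM, and the interval included no difference.

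Most genes of interferon receptors and signalling did not reach 2-fold between members and other neutrophils. Of 18 genes of receptors and signalling, all could be compared in control IgG, with 3 at least 2-fold higher (Stat2 and Irf7 among them), 1 at least 2-fold lower (Tyk2, from 10 UMIs) and a median log2 ratio of 0.23. In anti-CD3L1, 14 could be compared, with 4 at least 2-fold higher, including Stat2, Irf7 and Irf8. Stat2 was at 98.3 against 17.2 CPM in control IgG and 159 against 36.6 CPM in anti-CD3L1 (2.51 and 2.12). Irf7, which amplifies type I interferon production, was at 214 against 64.8 CPM and 518 against 188 CPM (1.73 and 1.46). Ifnar2 had log2 ratios of -0.07 (-0.15 to 0.02) and 0.04 (-0.33 to 0.39), and Jak1 of 0.18 and -0.22. The transcription factor genes Irf9 (0.93 and 0.74) and Stat3 (0.27 and 0.10) and the feedback inhibitor gene Socs3 (0.45 and 0.31) did not reach 2-fold in either library. Irf8 in anti-CD3L1 came from 20 UMIs, of which 75% lay in 1 cell, and 2 UMIs were left in the 26 members with fewer than 3 marker UMIs of other cell types.

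Most nucleic acid sensor genes that could be compared were higher in the members. Of 15 sensor genes, 10 could be compared in control IgG, with 7 at least 2-fold higher and 0 lower, and 4 in anti-CD3L1, with 3 at least 2-fold higher and 0 lower. Ddx58, which encodes the RNA sensor RIG-I, had log2 ratios of 2.04 (1.86 to 2.22) and 1.61 (0.97 to 2.23). Ifih1, which encodes the long-RNA sensor MDA5, had ratios of 1.52 and 1.26, and Zbp1, a sensor of Z-form nucleic acid, 1.86 and 1.44. The endosomal receptor gene Tlr13 did not reach 2-fold (-0.05 and 0.25), nor did Tlr7 (-0.51) and the cytosolic DNA sensor gene Aim2 (-0.19, -0.51 to 0.11) in control IgG. Aim2 was at 31.9 against 82.1 CPM in anti-CD3L1, with too few UMIs to be compared. The interferons themselves were almost unseen. Among 11 interferon genes, only Ifng was detected in the members, with 1 UMI in each library, and the others had 0 UMIs. At this depth 3 UMIs correspond to 1.15 CPM in control IgG and 23.9 CPM in anti-CD3L1, so that lower levels may have gone unseen.

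Many genes of class I antigen presentation were higher in the members. All 17 genes could be compared in control IgG, with 11 at least 2-fold higher, 0 lower and a median log2 ratio of 1.20, and 11 in anti-CD3L1, with 5 at least 2-fold higher, 0 lower and a median of 0.79. Without cells holding 3 or more marker UMIs of other types, 2 of 6 genes were at least 2-fold higher in anti-CD3L1, with a median of 0.66. Nlrc5, the transactivator of class I genes, had ratios of 2.23 and 1.32. Tap1, a peptide transporter subunit gene, had ratios of 2.20 and 1.28, and the immunoproteasome genes Psmb8 and Psmb9 had 1.60 and 1.73 in control IgG and 1.68 and 1.48 in anti-CD3L1. Among the class I chains, the nonclassical genes H2-Q4 (1.26), H2-Q6 (1.40) and H2-T22 (1.54) were at least 2-fold higher in control IgG and had too few UMIs to be compared in anti-CD3L1. H2-D1, H2-Q7 and H2-T23 did not reach 2-fold in either library, nor did H2-K1 and B2m. H2-K1 was at 734 against 445 CPM and 940 against 597 CPM (0.72 and 0.65), and B2m had ratios of 0.64 and 0.63.

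Genes that define neutrophils did not follow the interferon genes. S100a8 and S100a9 chose the cells of both classes and are left out of the counts. Of the other 21 identity genes, 0 were at least 2-fold higher or lower in control IgG, with a median log2 ratio of -0.08, and in anti-CD3L1 0 were at least 2-fold higher and 1, Lcn2, at least 2-fold lower, with a median of -0.06. Lcn2 had a log2 ratio of -1.08 there, and -0.10 (-0.54 to 0.31) without cells holding 3 or more marker UMIs of other types. Csf3r was at 1100 against 1150 CPM in control IgG and 1793 against 1610 CPM in anti-CD3L1. Retnlg, a resistin-like gene of mature neutrophils, was at 4262 against 6280 CPM and 3315 against 4296 CPM, lower by 0.56 and 0.37 on the log2 scale. Cxcr2 differed between the libraries, at 321 against 346 CPM in control IgG and 590 against 352 CPM in anti-CD3L1. Primary granule genes of neutrophil precursors could not be compared in either library for lack of UMIs. Of 9 secondary granule genes, 8 could be compared in control IgG, with 1 at least 2-fold higher (Cybb) and 0 lower, and 5 in anti-CD3L1, with 0 higher and 3 at least 2-fold lower (Ngp, Camp and Ltf). Lyz2, the lysozyme gene, was at 1012 against 1439 CPM in anti-CD3L1 and did not reach 2-fold. Ngp, a granule protein gene of late precursors, was at 23.9 against 1562 CPM there and Camp, the cathelicidin gene, had 0 UMIs against 1048 CPM, at least 43.9-fold lower with 3 UMIs taken as the floor. These UMIs sat in only 3.15% (Ngp) and 2.29% (Camp) of the other neutrophils of that library. The 830 UMIs of Camp lay in 8 cells. The bound takes no account of such clumping and is not a firm lower limit. In control IgG, Ngp was at 212 against 307 CPM and Camp at 39.8 against 71.1 CPM.

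Of 19 recruitment and cytokine genes, 17 could be compared there, with 4 at least 2-fold higher, 0 lower and a median log2 ratio of 0.56. In anti-CD3L1, 14 could be compared, with 0 at least 2-fold higher, 1 lower (Cxcl1, from 8 UMIs) and a median of 0.15. Cd274, which encodes the checkpoint ligand PD-L1, was at 1704 against 757 CPM in control IgG and detected in 92.1% of the members against 70.5% of the other neutrophils (log2 1.17, 1.12 to 1.22). In anti-CD3L1 it was at 1084 against 981 CPM (0.14, -0.13 to 0.41). The chemokine genes Ccl3 and Cxcl2 both had 0.56 in control IgG, but -0.60 (-0.85 to -0.35) and -0.22 (-0.30 to -0.14) in anti-CD3L1, and Tnf, which encodes tumor necrosis factor, had 0.68 and -0.67. Il1a, which encodes the alarmin interleukin-1 alpha, was at 1422 against 546 CPM in control IgG (1.38) and 167 against 124 CPM in anti-CD3L1 (0.43). Il18bp, a secreted inhibitor of interleukin-18 and a known interferon target, was at 50.1 against 9.85 CPM in control IgG (2.35) and had only 4 UMIs in the anti-CD3L1 members. Nos2, the inducible nitric oxide synthase gene, was at 508 against 193 CPM in control IgG (1.39, 1.30 to 1.49), with a UMI in 52.4% of the members. It had 0 UMIs in the 40 anti-CD3L1 members and stood at 11.4 CPM in their other neutrophils. Cybb, a subunit gene of the oxidase that makes superoxide, was at 427 against 187 CPM in control IgG (1.19) and 199 against 227 CPM in anti-CD3L1. Whether these ratios differed between the libraries beyond replicate spread was not tested.

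No gene was at least 2-fold lower in the members of both libraries. Of the 1663 genes compared in both, 90 were lower in control IgG and at least 1.5-fold lower in anti-CD3L1. The median log2 ratio over all genes compared in control IgG was itself -0.08. How many such genes counting error alone would give was not tested. The 8 with the largest difference in control IgG included Camp, Reps2, Flna, Tspan14, Runx2, Psenen and Prok2. Prok2, a secreted myeloid chemokine-like factor, was at 457 against 678 CPM in control IgG and 71.7 against 192 CPM in anti-CD3L1 (log2 -0.57 and -1.42). Flna, which encodes the actin cross-linker filamin A, was at 47.5 against 76.3 CPM and 63.7 against 119 CPM (-0.68 and -0.90). In control IgG, Reps2 (-1.18) alone among these reached 2-fold. In anti-CD3L1 the named genes other than Camp rested on 8 to 11 UMIs each in the members, and the intervals of Reps2, Flna, Runx2 and Psenen included no difference. Camp rested on 8 cells of the other neutrophils there. Survival genes were mostly alike, with 1 of 17 at least 2-fold higher in control IgG (Casp1, the inflammasome protease gene, 1.35) and 1 of 14 in anti-CD3L1 (Casp4, which encodes a sensor of cytosolic lipopolysaccharide, 1.07), and 0 lower in either. Of 8 stress genes, 0 were at least 2-fold higher in either library and 1, the heat shock gene Hspa1b, was at least 2-fold lower in control IgG.

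Single members varied widely in how much of the interferon program they carried. Type I list genes made up a median of 1.47% of the UMIs of a control IgG member, from 0.121% to 9.56%, against a median of 0.429% and a range from 0% to 5.82% in the other neutrophils. In anti-CD3L1 the median was 1.96% in members (0.302% to 8.82%) and 0.740% in the other neutrophils (0% to 6.11%). The classes overlapped in both libraries. In control IgG, 4.81% of the other neutrophils were above the members' median, and 14.9% were in anti-CD3L1. The share climbed with the number of rule genes, from 0.371% with 0 genes to 0.641%, 1.17% and 2.24% with 1, 2, and 3 or 4 genes in control IgG, and from 0.675% to 0.993%, 1.72% and 4.34% in anti-CD3L1. Interferon gamma list genes made up less, with medians of 0.216% and 0.205% in members and 0.0424% and 0.0797% in the other neutrophils. Members and other neutrophils thus lay along overlapping ranges.

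**Figure D3:**
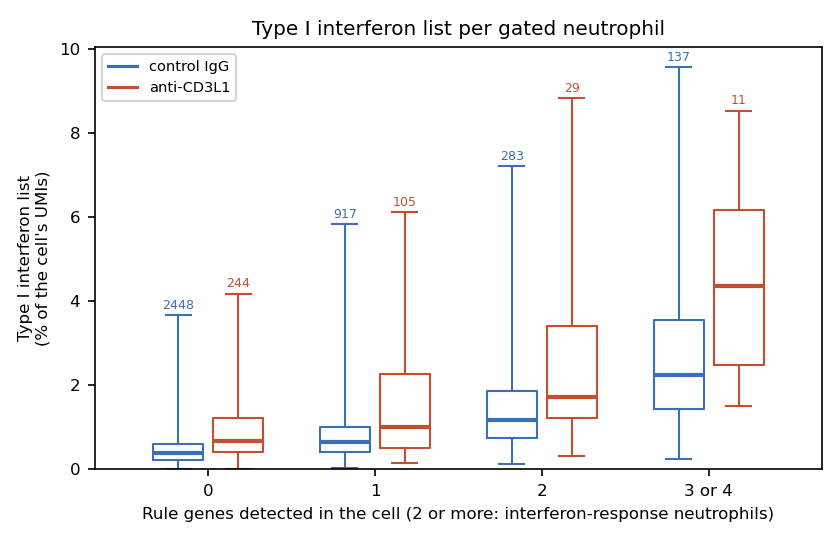
Share of each gated neutrophil's UMIs from the type I interferon list (vertical, percent) by the number of rule genes detected (horizontal) in control IgG (blue) and anti-CD3L1 (red); boxes span the quartiles with the median as a thick line, whiskers reach the lowest and highest cell, and the number of cells stands above. The median climbs from 0.371% to 2.24% in control IgG and from 0.675% to 4.34% in anti-CD3L1, and the whiskers overlap between all classes.

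Between the libraries, the members of anti-CD3L1 were set against those of control IgG, the comparison the study's design implies, with 1 library each. Of 1575 genes compared, 332 were at least 2-fold higher in anti-CD3L1 (21.1%) and 119 at least 2-fold lower (7.56%). These counts moved with the choice of cells. Without cells holding 3 or more marker UMIs of other types 174 were higher, and with at least 3 rule genes 151 were higher and 72 lower. With no Csf1r gate, chosen after seeing the data, 830 were higher. The median over all genes was shifted by 0.40 on the log2 scale, and the other neutrophils showed the same shift, also 0.40, with 837 (18.1%) and 157 (3.39%) of 4637 genes past 2-fold. Relative to that median, 162 genes were higher (10.3%) and 194 lower (12.3%) in the members, and 335 (7.22%) and 339 (7.31%) in the other neutrophils. The direction of the surplus in the members therefore depended on the scaling, and log2 ratios between the libraries are given after subtracting this median.

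The type I interferon list was partly higher in the anti-CD3L1 members. Of 33 genes compared, 14 were at least 2-fold higher and 1 lower as measured, and 9 higher and 2 lower relative to the median, with a median relative log2 ratio of 0.42. In the other neutrophils the relative counts were 17 higher and 2 lower of 38, with a median of 0.83. Ifit3 and Ifit3b led in the members, with relative log2 ratios of 2.90 (2.45 to 3.33) and 2.80 (2.26 to 3.32), followed by Cmpk2 (2.19) and Ifi27l2a (1.68). In the other neutrophils, Ifit3, Ifit3b and Cmpk2 had 2.35, 3.45 and 3.24. Rsad2 and Ifit1 both had 1.22 in the members, and 2.85 and 1.43 in the other neutrophils. Not every effector was higher. Slfn1 (-1.12, -1.77 to -0.54) and Trim25 were at least 2-fold lower, Slfn4 was at -0.93, and Herc6, Ifi47 and Usp18 lay between -0.15 and 0.19. Gbp5 was at -0.81 (-1.25 to -0.40) and Ifit1bl2 at 1.47 (1.02 to 1.90), but both chose the members. The rule genes that members held differed between the libraries, and the part of this in the other ratios was not tested. Of the interferon gamma list, 8 genes could be compared, with 4 at least 2-fold higher and 1 lower as measured, and 3 higher and 1 lower relative to the median. Without cells holding 3 or more marker UMIs of other types, 0 of 5 genes were at least 2-fold higher and 2 lower as measured. The median log2 ratio was then -0.41, against 0.48 with all members. Gbp7, a guanylate-binding protein gene, was at 133 and 271 CPM, with a ratio of 0.63 (0.08 to 1.14) relative to the median. Gbp2 (-0.46), Cxcl10 (-0.51) and Irf1 (-0.57) were lower relative to the median, Nos2 had 0 UMIs in anti-CD3L1, and the class II genes, which rested on few cells, were higher. Summed without class II genes and before the median was subtracted, that list was at 2810.9 CPM in the control IgG members and 2502.1 CPM in the anti-CD3L1 members (log2 -0.17, -0.34 to -0.005). On that scale the direction rested on Nos2, and without it the sum was at 2303 and 2502.1 CPM (log2 0.12, -0.05 to 0.28), a repeat chosen after seeing the data. Relative to the median shift of 0.40 between the libraries, the sum was lower with and without Nos2, since both log2 values lay below it. The summed type I list had 0.89 (0.84 to 0.94) before the median was subtracted.

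Recruitment and cytokine genes were in part lower in the anti-CD3L1 members. Of 14 compared, 7 were at least 2-fold lower and 0 higher as measured, and 8 lower and 0 higher relative to the median. Cxcl2, a CXCR2 ligand, was at 37103 CPM in control IgG and 11004 CPM in anti-CD3L1 (relative log2 -2.15), Ccl3 at 6801 and 1171 CPM (-2.93), and Il1a at 1422 and 167 CPM (-3.48). Cd274 was at -1.05 (-1.31 to -0.80) in the members and -0.03 in the other neutrophils. Of 21 identity genes, again without S100a8 and S100a9, 7 were at least 2-fold lower and 2 higher as measured, and 7 lower and 0 higher relative to the median. Lcn2, which encodes a siderophore-binding granule protein, was at 9875 and 948 CPM (-3.78), and Slpi, a protease inhibitor gene, at 2948 and 422 CPM (-3.20). The other neutrophils showed 9 of 17 and 7 of 21 genes lower in the same lists relative to the median, so that these differences were not confined to the members. Csf3r and Cxcr2 had relative log2 ratios of 0.31 and 0.48 in the members. Of 8 stress genes, which respond to dissociation and heat, 4 were at least 2-fold higher and 0 lower as measured, and 3 (Hspa1a, Hspa1b and Atf3) relative to the median, with a median relative log2 ratio of 0.58. In the other neutrophils 2 of 8 were at least 2-fold higher on either scale. The part of stress genes' differences in the other lists was not tested.

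The genes with the largest differences between the libraries were named by size. Among those lower in anti-CD3L1, Saa3, an acute-phase gene, was at 6530 CPM in control IgG members and 7.97 CPM, from 1 UMI, in anti-CD3L1. Nos2 (508 CPM) and F3 (366 CPM), the gene of the clotting initiator tissue factor, had 0 UMIs in anti-CD3L1, at least 21.2-fold and 15.3-fold lower with 3 UMIs as the floor. Lipg, Cxcl3, Alpk1, Fam162a, Lcn2 and Dach1 were also in this group, with relative log2 ratios from -4.78 to -3.78. Except for Lcn2, these ratios are imprecise. Lipg rested on 1 UMI in the anti-CD3L1 members (interval -10.1 to -2.30), Cxcl3 and Alpk1 on 2 each, Dach1 on 3 and Fam162a on 6. Saa3 made up 6233 CPM of the empty droplets in control IgG and 68.1 CPM in anti-CD3L1. Among the genes higher in anti-CD3L1, BC018473 had 0 UMIs in the control IgG members and 2231 CPM in anti-CD3L1, at least 1943-fold higher. The other neutrophils showed the same, with 0.0624 and 2470 CPM, and a UMI in 0.0297% and 73.9% of them. A difference between the mice of the groups that was there before treatment cannot be told apart from treatment for this gene or for the other differences between the libraries. Mgat5, Cd101, Fgl2 and Ifit3 were spread over 10 or more cells, with relative log2 ratios of 3.35, 3.15, 2.93 and 2.90. Ccl5, H2-Aa, Atp2a2 and Irf8 had 59.5%, 71.4%, 69.0% and 75% of their UMIs in 1 anti-CD3L1 member, and H2-Ab1 40.0%. In the 26 members with fewer than 3 marker UMIs of other cell types, Ccl5 had 0 UMIs, H2-Aa 3, Atp2a2 3 and Irf8 2.

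**Figure D4:**
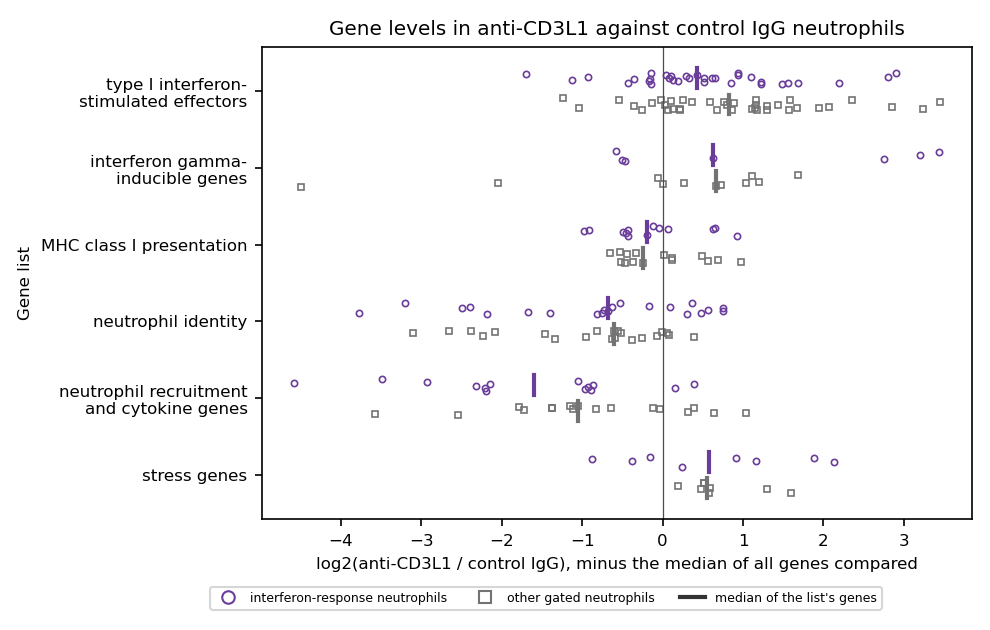
Log2 ratio of gene levels in anti-CD3L1 against control IgG, minus the median of all genes compared (horizontal), for genes of 6 lists (vertical) in the interferon-response neutrophils (purple circles) and the other neutrophils (grey squares); bars mark list medians of the genes drawn, and genes with 0 UMIs in a class, S100a8 and S100a9 are not drawn. Type I genes lie mostly to the right, cytokine genes mostly to the left, in both classes.

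Markers of other cell types moved with the library. Macrophage markers (8 genes) summed to 108 CPM in the control IgG members and 637 CPM in the anti-CD3L1 members, with Apoe the most abundant (53.6 and 446 CPM) and Pf4 and Folr2 at 0 UMIs in anti-CD3L1. The empty droplets held 4129 and 12003 CPM of the same markers. Monocyte markers (6 genes) summed to 76.5 and 414 CPM, mostly Ly6c2, and natural killer markers (6 genes) to 26.8 and 167 CPM, mostly Gzma. Within each library, macrophage markers were lower in the members in control IgG, at 108 against 162 CPM, and nearly level in anti-CD3L1, at 637 against 628 CPM. Monocyte markers were higher in the members, at 76.5 against 56.9 CPM in control IgG and 414 against 250 CPM in anti-CD3L1. Natural killer markers were also higher, at 167 against 22.7 CPM in anti-CD3L1, from 21 UMIs. At least 3 marker UMIs of other types were held by 57 of 420 control IgG and 14 of 40 anti-CD3L1 members. Among the other neutrophils, 240 of 3365 and 92 of 349 held as many, a smaller share in both libraries. Without such cells, 363 and 26 members were left, and the summed type I list was at 15749 against 5401 CPM in control IgG (log2 1.54, 1.53 to 1.56) and 29853 against 10906 CPM in anti-CD3L1 (1.45, 1.38 to 1.53), as large as before. Dendritic markers were at 1.15 and 0 CPM and B cell markers at 0.765 and 7.97 CPM. Plasmacytoid dendritic cell, mast cell, eosinophil, erythroid, fibroblast and cycling markers each summed to at most 23.9 CPM in the members of either library. The part of other cell types in the remaining differences was not tested.

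The same 4 genes also divided the cells with Csf1r and under 2% S100a8 plus S100a9 UMIs. At least 2 of the genes were found in 334 of them in control IgG (15.8%) and 1138 in anti-CD3L1 (15.6%), cells deeper than the neutrophils (medians 12648 and 9115 UMIs). With all cells thinned to 1000 UMIs and the gates kept, the shares were 1.04% and 1.05%, against 3.39% and 3.29% of the gated neutrophils. S100-high cells with Csf1r were at 1.42% and 4.0% after the same thinning. These shares describe detection of the genes that chose the members. Against Csf1r cells with fewer of the genes, 395 of 10580 genes (3.73%) were at least 2-fold higher in control IgG and 262 of 13293 (1.97%) in anti-CD3L1. Of the type I list, 50 of 54 and 41 of 55 genes were at least 2-fold higher, with medians of 2.02 and 1.24. Nos2 had a log2 ratio of -0.42 (-0.69 to -0.16) in these control IgG cells against 1.39 in the neutrophils, and F3 -0.37 (-1.06 to 0.25) against 1.32. In the anti-CD3L1 Csf1r cells Nos2 had 0.87 (0.23 to 1.47) and F3 0.42 (0.04 to 0.79) (the neutrophil members there had too few UMIs of both for a comparison). Cd274 had 0.54 in control IgG and 0.63 in anti-CD3L1, against 1.17 and 0.14 in the neutrophils. Il1a had 0.35 and 0.15, against 1.38 and 0.43. These differences between cell classes had no replicate and were not tested.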

How the data were processed

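Single mouse immune cells from 2 libraries, control IgG and anti-CD3L1, were analysed from the count matrices the authors deposited. Per the study's methods, Cell Ranger 7.1.0 made the matrices from the reads, and Seurat 5.1.0 served for quality control and clustering. The submitters' processing notes name the build GRCm39. Deposited counts are whole UMIs for 32285 genes and every barcode (1084690 and 1548857), neither normalized nor filtered. A table of the authors' own comparisons (fold changes and p-values) was not used. Cells were filtered by the study's limits plus a minimum of 500 UMIs. No doublet caller was run. A screen on 50 marker genes of other cell types and the Csf1r gate were used in its place.

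UMIs were summed per class and library and divided by the class total (CPM). Ratios carry exact conditional binomial intervals, shares exact binomial (Clopper-Pearson) intervals and their differences Newcombe intervals. With 1 library per group no count model was fitted and no p-value computed. A difference was counted at 2-fold or more. The intervals were checked on simulated counts drawn independently, as the intervals assume. That check does not cover UMIs clumped in a few cells, for which the intervals may be too narrow. Named genes were the 12 largest rises and 8 largest falls of members against other neutrophils seen in both libraries, the 10 largest differences between the libraries each way, and list members (25 lists, 284 genes), leaving out mitochondrial genes, unnamed gene models, Xist and Y-linked genes. The members and lists were chosen with earlier results of these data known. Alternatives were other UMI, mitochondrial, S100 and rule gene limits, the marker screen, thinning, other scalings, no low filter and free RNA subtraction. Python 3 with numpy, scipy, pandas, statsmodels and matplotlib was used. Promoter windows came from RefSeq and gene positions from GENCODE M21 (14 of 14 genes matched). Results for some genes are not reported here.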

Additional observations from a re-analysis of the deposited data

Results flagged for a closer look

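Several genes differed between members and other neutrophils in opposite directions in the libraries, each by at least 1.5-fold with intervals excluding no difference. The difference between the libraries itself was not tested, since each group was 1 library. Ccl5, a chemokine gene of lymphocytes, had a log2 ratio of -2.12 in control IgG and 4.70 in anti-CD3L1, where its 74 UMIs lay in 2 cells. It had 0 UMIs in the 26 anti-CD3L1 members left without cells holding 3 or more marker UMIs of other types, and 0.22 (-0.98 to 1.25) in control IgG. Cd74, the invariant chain of class II, had a log2 ratio of -0.88 in control IgG and 1.14 in anti-CD3L1. H2-Aa had -1.31 and 1.01, and H2-Ab1 -1.17 and 0.98. The anti-CD3L1 members held 83 of their 137 class II UMIs in 1 cell, and 1 cell held 728 of the 3497 in the control IgG other neutrophils. Without cells holding 3 or more marker UMIs of other types, Cd74 was at -0.13 and 0.22, and both intervals included no difference. H2-Aa was at -0.40 and -1.38, and H2-Ab1 at -0.27 and 1.02 (-0.03 to 1.95), also with intervals that included no difference. Tnf, which encodes tumor necrosis factor, had 0.68 in control IgG and -0.67 in anti-CD3L1, and 0.80 and -0.44 without those cells, the latter with an interval from -0.96 to 0.03.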

How the results depend on the processing

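No paired analysis was possible because each group was 1 library. For the same reason no replicate could be left out. The difference in the share of members among gated neutrophils ran from -1.22 points (marker screen) to 0.72 (thinning), against -0.81 as reported, and was also positive with S100a8 and S100a9 at 5% or more (0.30), but -0.10 with thinned rule genes and the gate kept from the full counts. Its interval included 0 under every alternative run. The difference in the share of filtered cells was -4.08 points with S100a8 and S100a9 at 5% or more, -1.50 with at least 3 rule genes, -4.01 with the marker screen, -1.66 after thinning, -1.38 after thinning with the gate kept, and -7.81 with no Csf1r gate, the last 2 being alternatives chosen after seeing the data.

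For counts of genes at least 2-fold higher and lower in control IgG members, no Csf1r gate gave 657 and 44, no low filter 2160 and 832, and at least 3 rule genes 301 lower. In anti-CD3L1, no Csf1r gate gave 313 and 64, no low filter 1849 and 520, the marker screen 53 higher, and S100 at 5% or comparison cells with 0 rule genes 45 lower each. Between the libraries, at least 3 rule genes gave 151 higher and 72 lower, the marker screen 174 higher, the median ratio scaling 162 and 194, no Csf1r gate 830 higher, and no low filter 3226 and 402, while subtracting free RNA gave 301 and 121. Without Nos2, a repeat chosen after seeing the data, the summed interferon gamma list turned from -0.17 to 0.12 on the log2 scale before the median was subtracted. Both values lay below the median shift of 0.40, so that relative to it the direction did not turn. The cause of the shifts in counts and shares was not tested, except that the low filter by its construction decides how many genes are compared. Depth limits the anti-CD3L1 members to 125497 UMIs in 40 cells, so that only 1575 to 1711 genes could be compared there.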
